A study of Homo sapiens with 32 samples.

Results

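The lineage basic helix-loop-helix (bHLH) transcription factors are 46 of the 28278 gene symbols in the count tables of a study of the cohesin subunit STAG2 in Ewing sarcoma cells. They were taken by symbol: the numbered members of the NEUROD, NEUROG, ASCL, ATOH, HES, HEY, HAND, TWIST, MYF, OLIG, BHLHE and TAL families, with MYOD1, MYOG, HEYL, PTF1A, MSC, TCF21 and TCF15. By role, 21 are proneural or neuronal factors, 11 act in mesoderm and muscle, 2 belong to the circadian clock and hypoxia response, and 2 act in blood. The other 10 are of the HES and HEY families, called Notch effectors here by family and not by a known response of each. In the small interfering RNA (siRNA) table, which lists 60107 Ensembl genes, the same 46 genes were found by their Ensembl identifiers.

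A bHLH factor binds DNA as a dimer at an E-box, and most lineage members need a ubiquitous E protein (TCF3, TCF4 or TCF12) as partner, which the ID proteins withhold from them. Many HES and HEY proteins are repressors that Notch signalling switches on and that work through Groucho (TLE) corepressors, often against proneural and muscle factors. Ewing sarcoma is a tumour of bone and soft tissue driven by the fusion factor EWS::FLI1, with traits of neural crest and mesenchymal cells. Polycomb repressive complex 2 (PRC2), whose enzyme is EZH2 and whose subunit SUZ12 it needs, keeps developmental genes silent by methylating histone H3.

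RNA was sequenced from the Ewing sarcoma cell lines A673, SK-N-MC and A4573. Experiments 1 to 3 compared A673 clones. Experiment 1 held 2 libraries of the WT clone, 1 of parental cells and 2 of STAG2 KO clones. Experiment 2 held 2 of the WT clone, 1 of parental cells, and 3 each of STAG2 KO, EZH2 KO and SUZ12 KO clones. Experiment 3 held 1 of the WT clone, 1 of parental cells and 3 of clones labelled STAG1 KO, edited for the other variant STAG subunit. All A673 KO clones came from the WT clone, which carries an inducible Cas9 gene at the AAVS1 locus (genotype iCas9), while parental cells carry none. A KO library is therefore 1 edited clone, and every control library is either the same WT clone or the parental line. Experiment 4 held 3 mock-transfected A673 cultures and 3 transfected with siRNA against STAG2 (siSTAG2). The 2 remaining lines gave 1 library per arm: SK-N-MC WT and STAG2ko, and A4573 WT, which per the study lacks STAG2 protein, beside A4573 with STAG2 restored (STAG2 KI). The labels give all 4 the genotype iCas9, while the study describes a transfected Cas9 plasmid for A4573, which the counts do not settle. The numbers of the STAG2 KO columns of experiment 1 and of the STAG1 KO columns do not match the clone numbers of the labels, so those libraries are known by group and column number only.

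Totals ran from 15734628 to 20663679 counts in the 22 A673 clone libraries (median 18957601.5). In experiment 1 the totals were 16358857 and 18128768 for WT clone libraries a and b, 19125393 for parental, 17294573 for STAG2 KO 5 and 18894386 for STAG2 KO 24. In experiment 2 the controls held 20366240, 17898334 and 20175919 counts (WT clone 1, WT clone 2, parental), EZH2 KO 1, 2 and 3 held 20663679, 16848611 and 20590919, SUZ12 KO 1, 2 and 3 held 19472972, 20646785 and 18510732, and STAG2 KO 2, 3 and 5 held 20180688, 20454331 and 16983193. Experiment 3 gave 19704414 counts for parental, 17694942 for the WT clone, and 15734628, 18126175 and 19020817 for STAG1 KO 1, 5 and 7. The pairs were deeper, with 32261248 (A4573 WT), 31778759 (A4573 STAG2 KI), 31679209 (SK-N-MC WT) and 29322507 (SK-N-MC STAG2ko). The siRNA table holds normalised values, from which whole reads could be recovered within 0.1 read for 100% of values: 7700468, 7774407 and 7089738 reads for controls 1, 2 and 3, and 6852340, 8184632 and 7933826 for siSTAG2 1, 2 and 3. WT clone libraries a and b of experiment 1 were closer to each other, with a chi-square averaging 1.33 over 13967 genes, than other libraries of a group, which gave 9.41 to 140 when taken in pairs. Whether they are separate cultures cannot be told from the files. Levels in the count tables are given as normalised CPM (counts scaled to the library's total with TMM factors) and those of experiment 4 as the deposited normalised values.

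The targeted genes were read first. STAG2 stood at 294.5, 302.8 and 282.7 CPM in the controls of experiment 1 (WT clone a, WT clone b, parental), at 42.4 in STAG2 KO 5 and at 184.2 in STAG2 KO 24. In experiment 2 it was 297.5, 360.8 and 256.2 in WT clone 1, WT clone 2 and parental, and 63.8, 69.4 and 59.5 in STAG2 KO 2, 3 and 5. All 5 STAG2 KO libraries lay below all 6 controls, and STAG2 KO 24 lay between the other 4 and the controls. The log2 fold change was −1.84 (SE 0.318, edgeR quasi-likelihood, Benjamini-Hochberg adjusted p = 0.00391). STAG1 in experiment 3 was 69.6 in parental and 57.8 in the WT clone, against 61.5, 15.1 and 33.3 in STAG1 KO 1, 5 and 7. The library labelled STAG1 KO 1 therefore held STAG1 RNA at the level of the controls, and the group did not pass the test (log2 fold change −0.80, edgeR adjusted p = 0.376). EZH2 was 172.4, 176.8 and 194.4 in the controls of experiment 2 and 45.8, 55.3 and 28.4 in EZH2 KO 1, 2 and 3. SUZ12 was 60.3, 67.1 and 60.9 in those controls and 15.9, 11.3 and 20.6 in SUZ12 KO 1, 2 and 3. Neither gene overlapped between its KO group and the controls (log2 fold changes −1.98 and −1.90, edgeR adjusted p = 0.000137 and 0.000299). In experiment 4 STAG2 was 1068, 992 and 1090 in controls 1, 2 and 3 and 144, 180 and 153 in siSTAG2 1, 2 and 3, with no overlap (log2 fold change −2.72, limma adjusted p = 4.01e-18). In the pairs STAG2 was 281.3 CPM in SK-N-MC WT and 179.3 in SK-N-MC STAG2ko, and 32.3 in A4573 WT and 85.2 in A4573 STAG2 KI. STAG2 RNA was counted in every library edited or depleted for it, so these levels check the direction of the labels only.

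Of the 46 members, 19 reached more than 10 counts in at least 1 of the 22 A673 clone libraries, 23 had a highest count of 1 to 10 there, and 4 (ASCL3, ASCL4, ATOH1 and OLIG1) had none. The 19 were the proneural or neuronal ATOH7, ATOH8, BHLHE22, NEUROD6 and OLIG3, the Notch effectors HES1, HES4, HES6, HES7, HEY1 and HEYL, the mesodermal HAND2, MSC, TCF15, TWIST1 and TWIST2, the clock factors BHLHE40 and BHLHE41, and the blood factor TAL1. Only 13 of them passed 10 counts in every control library. The master regulators of skeletal muscle MYOD1, MYF5, MYF6 and MYOG, and the proneural NEUROG1 and NEUROD2, are among 18 members at 10 counts or fewer in each of the 26 clone and pair libraries. Those 18 also include ASCL2, ASCL3, ASCL4, BHLHE23, HES2, HES3, HES5, NEUROD4, NEUROG3, TAL2 and TCF21. A further 9 passed 10 counts only in SK-N-MC or A4573: ASCL5, ATOH1, HAND1, HEY2, NEUROD1, NEUROG2, OLIG1, OLIG2 and PTF1A.

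Levels of different genes can be compared only per length of transcript. In the 8 A673 control libraries of experiments 1 to 3 the highest member was HES1, the main Notch-induced repressor, at 60.7 ± 12.5 CPM per kilobase (SD), followed by MSC (musculin, a repressor of the muscle programme) at 51.5 ± 8.56. These neighbours do not differ beyond their spread. TWIST1, a driver of mesenchymal state, followed at 18.3 ± 5.95 per kilobase, HES6 at 12.7 ± 4.61, HAND2 at 10.4 ± 0.839 and HES4 at 8.0 ± 0.491, where HES6 overlaps with TWIST1, HAND2 and HES4 within 1 SD. The other 7 lay at 3.5 ± 2.17 (BHLHE22), 1.49 ± 0.928 (BHLHE40), 1.38 ± 0.667 (HEYL), 1.02 ± 0.32 (HES7), 0.983 ± 0.249 (BHLHE41), 0.893 ± 0.39 (ATOH8) and 0.253 ± 0.0432 (HEY1). Of these, neighbours from BHLHE22 to ATOH8 are closer than their spread. HES1, MSC, TWIST1, HES6, HAND2 and HES4 thus lay above the mean of each proneural member.

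**Figure D1:**
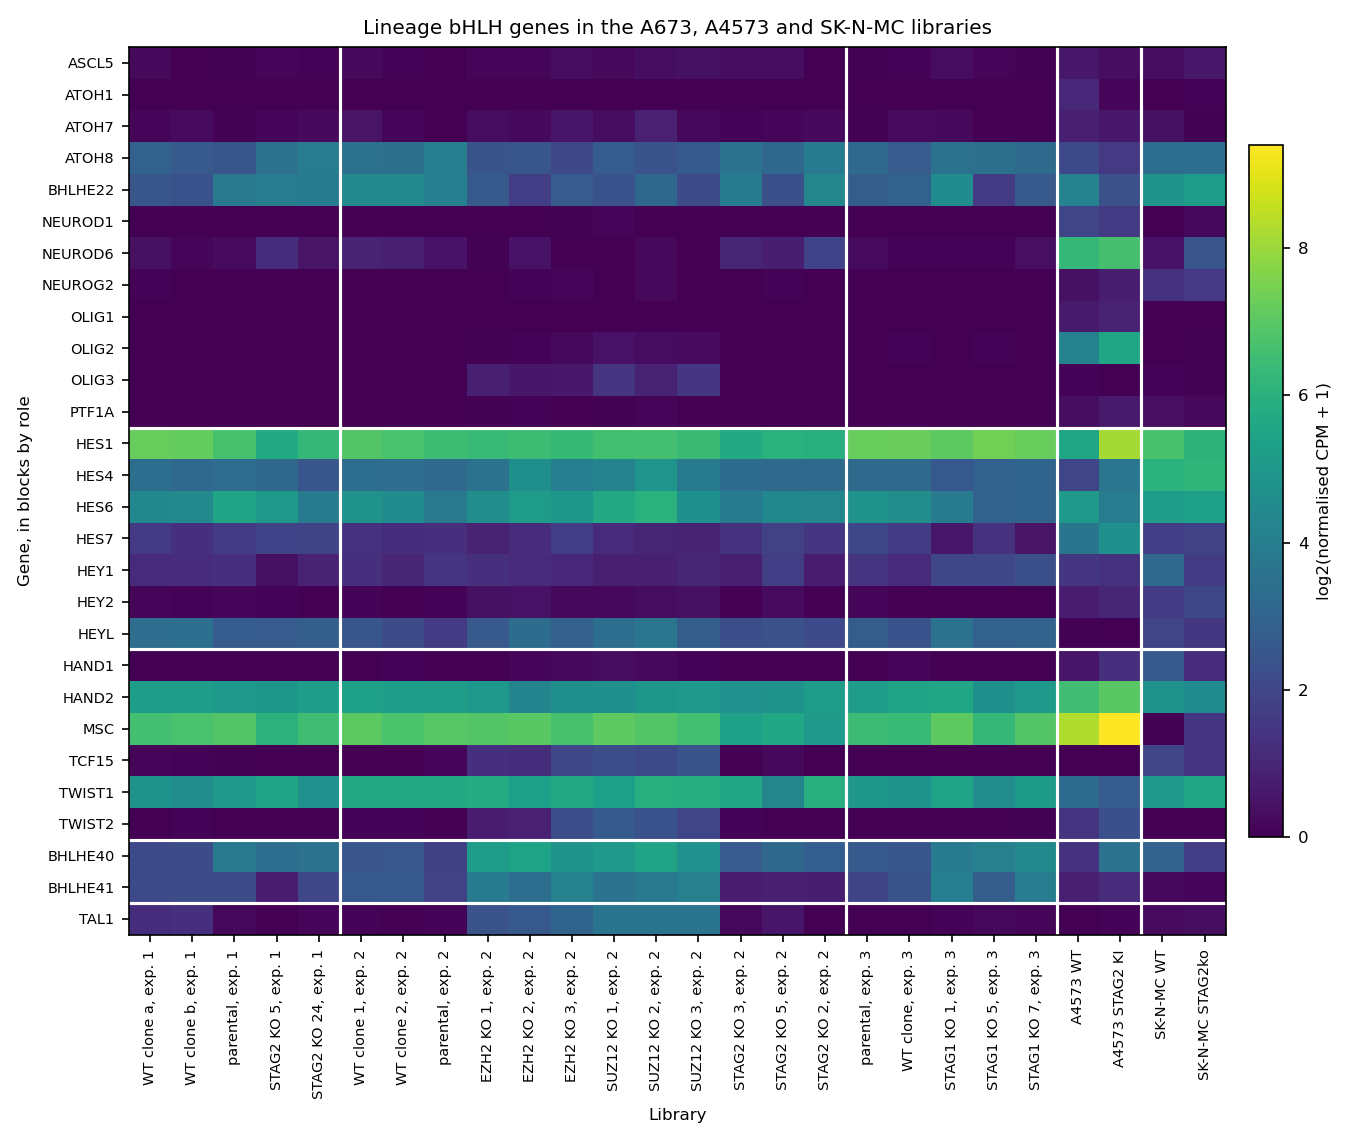
Heat map of log2(normalised CPM + 1) in the 26 clone and pair libraries (columns) for members above 10 counts in at least 1 of them, in blocks by role. HES1 and MSC are high in every A673 library, and TAL1, TCF15, TWIST2 and OLIG3 are counted in each EZH2 KO and SUZ12 KO library of experiment 2. TCF15 also stands in SK-N-MC (98 and 54 counts in WT and STAG2ko), TWIST2 in A4573 (56 and 126 in WT and STAG2 KI) and TAL1 in WT clone a and b (23 and 26).

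Genes were tested against the controls of the same experiments over all genes that passed a filter on low counts, and a gene was called where its p, adjusted by the method of Benjamini and Hochberg, was under 0.05. The p-values measure the spread between the samples of a group, which may be technical in part. A p that misses the threshold does not show that values did not differ.

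STAG2 KO clones held less RNA of HES1, MSC and BHLHE41, and no member was called higher where both experiments were fitted together. Of 15 members tested by edgeR, 3 were called, all lower, while 12.2% of the 14215 genes tested were called and 6.34% called lower. Their median log2 fold change was −0.22, against 0.011 for all genes. The count moved to 5 without STAG2 KO 5 of experiment 2, when HEY1 was called lower (−0.97) and NEUROD6 higher (1.67) as well. All genes called then went from 1736 to 4219, of 14040 tested, so the share over all genes rests on that library. It differed from STAG2 KO 2 and 3 by a chi-square averaging 140 and 113 per gene, where those differed from each other by 25.7. The count moved to 4 without the parental library of experiment 1, adding BHLHE40, higher (1.1), and to 2 without any of 5 other libraries, those on which the BHLHE41 call rests. Without STAG2 KO 24, whose STAG2 level is intermediate, it was 3. Experiment 1 alone called HES1 lower and ATOH8 higher (1.21). ATOH8 there was 10.4 and 14.9 CPM in STAG2 KO 5 and 24 against 6.48, 5.20 and 4.75 in WT clone a, WT clone b and parental. Those calls take WT clone a and b as separate controls, which they may not be, so the spread may be understated. In experiment 2 ATOH8 overlapped, with 13.3, 10.9 and 7.98 in STAG2 KO 2, 3 and 5 against 10.7, 10.1 and 15.3.

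Acute depletion by siRNA in parental A673 cells also gave lower calls only. With limma on log2 values, 3 of 12 members tested were called, TWIST1, BHLHE22 and HES1, all lower, against 20.5% of 12060 genes called and 11.0% called lower. The members' median was −0.38 and that of all genes 0.007. HES1 is the member called both in the KO clones and after knockdown, in libraries that share no control.

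In STAG1 KO clones BHLHE40 alone was called, higher, of 13 members tested by edgeR, where 5.27% of 14373 genes were called and 2.77% called higher. The median over members was 0.37 and over all genes −0.003. That call needs both control libraries: without either one, 0 members and 0 genes were called. Without the library labelled STAG1 KO 1, 2 members were called (BHLHE40 and HES6), without STAG1 KO 5 the single call was BHLHE41, and DESeq2 called 3 (BHLHE40, BHLHE41 and HES6).

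PRC2 loss gave more calls among the members than the other comparisons with controls. In EZH2 KO clones 6 of 18 members tested were called higher and 2 lower by edgeR, beside 15.7% of 15130 genes called, 12% higher and 3.69% lower. In SUZ12 KO clones 9 were called higher and 2 lower, beside 20.6% of genes called, 14.7% higher and 5.87% lower. Of the 18, OLIG3, TAL1, TCF15 and TWIST2 had 2 counts or fewer in the controls and passed the filter only through the EZH2 KO and SUZ12 KO libraries, so they had to differ. The other 14 tested members gave 2 higher and 2 lower calls in EZH2 KO and 5 higher and 2 lower in SUZ12 KO. Of the 13383 genes that passed without those libraries, 11.9% were called in EZH2 KO, 7.68% higher and 4.17% lower, and 15.8% in SUZ12 KO, 9.21% higher and 6.63% lower. Over the 14 members the medians were 0.02 and −0.04, against −0.03 and −0.06 for those genes. With the 4 included, also at their bound, the medians were 0.38 and 0.65, against 0.037 and 0.009 for all genes tested. All genes called went from 2377 to 3885 in EZH2 KO and from 3112 to 4797 in SUZ12 KO without STAG2 KO 5, which shares their fit. These comparisons share their 3 controls, as do the STAG2 KO clones of experiment 2, so likeness among them is not independent. In SUZ12 KO the count of 11 went to 6 without the parental library and to 7 without WT clone 2.

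**Figure D2:**
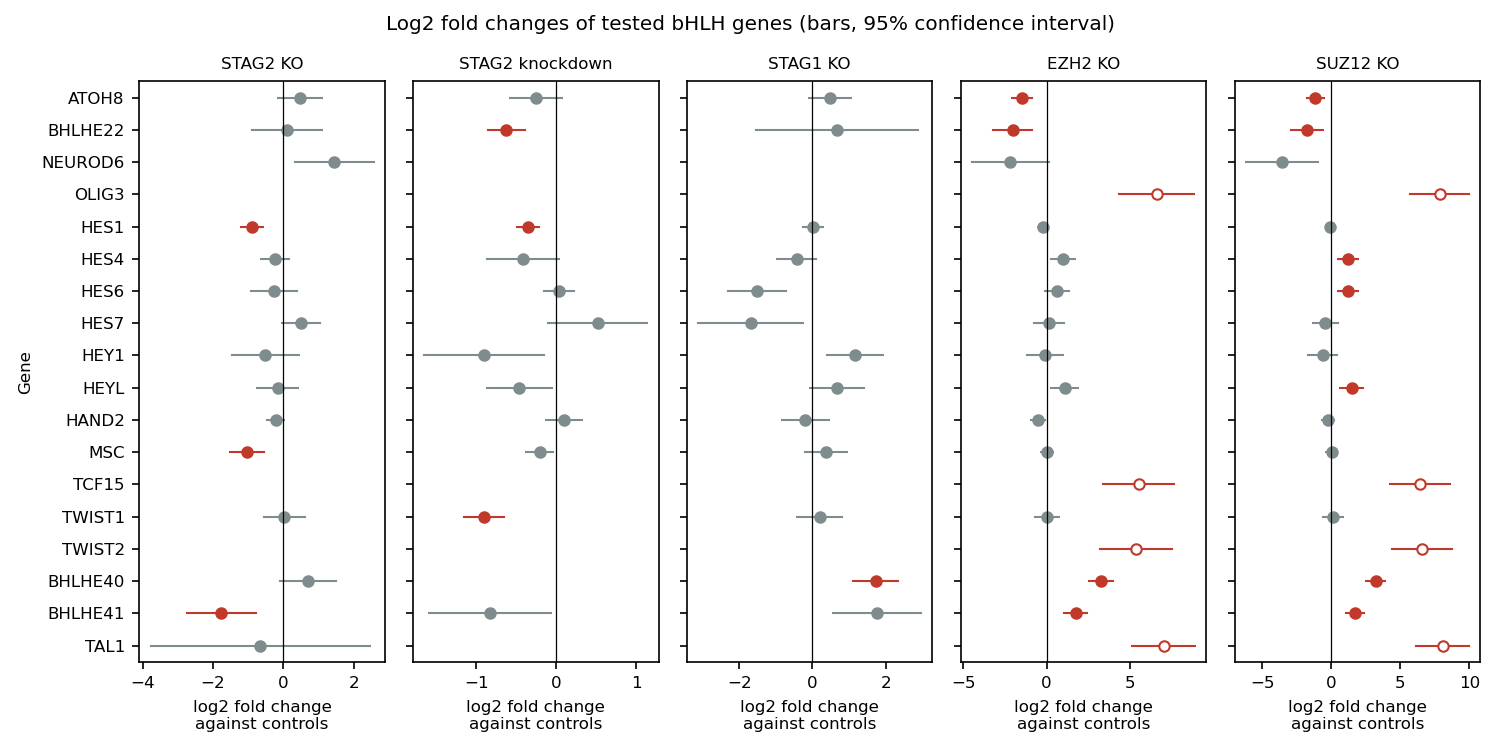
Log2 fold change of each tested member with its 95% confidence interval in STAG2 KO, STAG2 knockdown, STAG1 KO, EZH2 KO and SUZ12 KO, with called members in red and the others in grey, on a separate x axis for each. Open circles mark members with at most 3 counts in the controls, where the fitted value is no bound; HES1 lies left of 0 in STAG2 KO (−0.89) and after knockdown (−0.35).

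The Notch effectors were led by HES1 (ENSG00000114315, chromosome 3, bases 194136148 to 194138732, plus strand, GENCODE on GRCh38). In experiment 1 HES1 was 147.7, 144.1 and 99.4 CPM in WT clone a, WT clone b and parental, and 52.9 and 76.0 in STAG2 KO 5 and STAG2 KO 24. In experiment 2 it was 117.0, 103.6 and 88.3 in WT clone 1, WT clone 2 and parental, and 58.1, 52.6 and 63.7 in STAG2 KO 2, 3 and 5. All 5 KO libraries lay below all 6 controls, with means of 60.6 ± 9.7 (SD, n = 5) and 116.7 ± 24.4 (n = 6). HES1 fell by 0.89 on the log2 scale (SE 0.144, 95% interval −1.21 to −0.58, edgeR adjusted p = 0.00268). Within experiments the log2 fold change was −1.01 in experiment 1 (edgeR adjusted p = 0.0312) and −0.77 in experiment 2 (0.0427). The spread in experiment 1 rests in part on WT clone a and b, which may not be separate cultures. After knockdown HES1 was 2002, 1874 and 2163 in controls 1, 2 and 3 and 1467, 1558 and 1707 in siSTAG2 1, 2 and 3. Every siSTAG2 library was below every control, and the fall of HES1 was smaller than in the clones (log2 fold change −0.35, SE 0.0654, 95% interval −0.49 to −0.22, limma adjusted p = 0.000291). That difference in size, between separate experiments, was not tested. In bulk RNA, fewer cells with a transcript and less of it per cell cannot be told apart.

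HES1 was not called in the other KO genotypes. It was 147.1 and 152.1 in parental and WT clone of experiment 3 and 135.0, 169.0 and 148.3 in STAG1 KO 1, 5 and 7, so the groups overlapped (log2 fold change 0.01, 95% interval −0.27 to 0.29, edgeR adjusted p = 0.97). In EZH2 KO 1, 2 and 3 it was 80.1, 87.7 and 77.6, just under the lowest control of experiment 2 at 88.3, and in SUZ12 KO 93.6, 96.7 and 84.8, which overlap with them. Neither passed the test (−0.24, edgeR adjusted p = 0.236, and −0.10, 0.636). The difference of HES1 between the STAG2 KO and PRC2 KO clones did pass: STAG2 KO lay below the mean of EZH2 KO and SUZ12 KO by a log2 value of −0.59 (SE 0.117, edgeR adjusted p = 0.00332), with all 3 libraries under all 6.

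Since the HES1 call was made in clones and after knockdown, its promoter is shown, 250 bases before to 50 bases after the start, from RefSeq (GRCh38.p14). Capitals mark the N-box CACNAG, or CTNGTG where it lies on the other strand, a HES binding motif. The window holds 4 of them and no E-box (CANNTG).
HES1, chr3:194135898-194136197, plus strand: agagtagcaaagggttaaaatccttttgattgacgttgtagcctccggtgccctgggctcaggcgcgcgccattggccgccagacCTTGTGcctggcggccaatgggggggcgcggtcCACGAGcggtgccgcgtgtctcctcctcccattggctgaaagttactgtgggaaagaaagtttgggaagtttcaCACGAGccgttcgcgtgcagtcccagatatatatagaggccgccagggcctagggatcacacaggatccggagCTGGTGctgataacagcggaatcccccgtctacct
Of all 35116 promoter windows in that table, 38.0% hold an N-box and 68.7% hold an E-box on either strand. Of the 46 members 35 have a window, and their 36 windows hold an N-box in 15 (41.7%) and an E-box in 21 (58.3%). They are rich in G and C, with a median of 62.8% and 20 CpG pairs, where all windows have 58.7% and 14. The members with no entry include ASCL2, BHLHE22, HEY1, MSC, MYOD1, OLIG1, OLIG2, PTF1A, TCF15 and TWIST1. The doubled ETS core GGAAGGAA, of the kind EWS::FLI1 binds in repeats, was in 3.7% of all windows and in 1 member window. A match describes letters in a window and does not make it a bound site.

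Among the other Notch effectors, HES4, HES6 and HEYL were called higher in SUZ12 KO. HES4 was 9.63, 9.30 and 8.42 CPM in WT clone 1, WT clone 2 and parental and 17.2, 28.5 and 14.2 in SUZ12 KO 1, 2 and 3, with no overlap. HES6, which counteracts HES1 in neuronal and muscle differentiation, was 27.7, 22.1 and 12.9 in the same controls and 50.1, 62.5 and 25.4 in SUZ12 KO. SUZ12 KO 3 lay below WT clone 1, so HES6 overlapped, although 2 of 3 KO libraries were above all controls. HEYL was 4.67, 3.59 and 2.06 in the controls and 9.42, 11.8 and 5.78 in SUZ12 KO, with no overlap. The log2 fold changes were 1.20 for HES4 (SE 0.327, edgeR adjusted p = 0.0225), 1.21 for HES6 (SE 0.341, 0.0263) and 1.46 for HEYL (SE 0.376, 0.0175). HES7 and HEY1 lay the other way in SUZ12 KO, below every control. Neither was called there (log2 fold changes −0.44 and −0.65, edgeR adjusted p = 0.477 and 0.382). For HEY1, SUZ12 KO 3 at 1.026 CPM was just under WT clone 2 at 1.027. In EZH2 KO 1, 2 and 3 HES4 was 10.3, 24.6 and 15.5, HES6 24.2, 35.7 and 30.9, and HEYL 5.11, 9.07 and 6.35. HES4 and HEYL lay above all controls there and HES6 overlapped, and none passed the test by edgeR (log2 fold changes 0.97, 0.62 and 1.08, adjusted p = 0.0662, 0.239 and 0.0734). DESeq2 called HES4 and HEYL in EZH2 KO, and edgeR called HES4 there without EZH2 KO 1 (1.23), SUZ12 KO 2 or STAG2 KO 5 (0.97 each).

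Single libraries decide these 3 calls in SUZ12 KO. The edgeR adjusted p of HES4 was 0.113 without SUZ12 KO 2, 0.0715 and 0.0767 without WT clone 1 or 2, and 0.0794 without parental. For HES6 it was 0.122 without SUZ12 KO 2, 0.076 without SUZ12 KO 1, 0.0779 without WT clone 2 and 0.0981 without parental. For HEYL it was 0.0764 without SUZ12 KO 2, 0.0501 without SUZ12 KO 1, 0.0616 without WT clone 2 and 0.0687 without parental. Over all alternatives of the processing the adjusted p ranged from 0.00291 to 0.113 for HES4, from 0.00429 to 0.122 for HES6 and from 0.00111 to 0.0764 for HEYL.

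In experiment 3, HES6 was 27.6 and 24.3 CPM in parental and WT clone and 13.7, 6.59 and 7.23 in STAG1 KO 1, 5 and 7. All 3 lay below both controls, without passing the test (log2 fold change −1.51, SE 0.327, edgeR adjusted p = 0.0563). HES7, which oscillates in the segmentation clock of the embryo, was 3.13 and 2.18 in those controls and 0.508, 1.54 and 0.413 in STAG1 KO (−1.68, edgeR adjusted p = 0.148). HEY1, a Notch target of vessels and heart, went the other way, from 1.66 and 1.25 to 2.99, 2.96 and 3.92 (1.17, edgeR adjusted p = 0.0876). Groups of HES7 and HEY1 did not overlap either, at levels of a few CPM. HES4 was also lower in every STAG1 KO library than in both controls, and HEYL higher. Neither passed (log2 fold changes −0.43 and 0.67, edgeR adjusted p = 0.284 and 0.235). In STAG2 KO clones none of HES4, HES6, HES7, HEY1 and HEYL was called (log2 fold changes −0.24, −0.26, 0.51, −0.52 and −0.17). HES7 was 2.72 and 2.77 CPM in STAG2 KO 5 and 24 of experiment 1, where the highest control held 2.19. In experiment 2 it was 1.78, 1.59 and 2.57 in STAG2 KO 2, 3 and 5, where the highest control held 1.54. Each KO library was thus above every control of its own experiment. HEY1 in those clones was 0.347, 0.905, 0.667 and 0.792 in STAG2 KO 5 and 24 of experiment 1 and STAG2 KO 2 and 3 of experiment 2, all under the lowest control at 1.03, and 2.36 in STAG2 KO 5 of experiment 2, above the highest control at 1.73. After knockdown HEYL was 53.4, 57.1 and 49.0 in controls 1, 2 and 3 and 41.1, 42.7 and 31.9 in siSTAG2, and HEY1 was 13.3, 19.7 and 14.6 against 5.55, 10.2 and 8.69. Each siSTAG2 library was below each control for both, and neither passed limma's test (adjusted p = 0.0968 and 0.0817). HES7 lay the other way, at 18.1, 14.8 and 10.4 in controls 1, 2 and 3 and 22.2, 20.4 and 19.3 in siSTAG2, all higher, without passing (log2 fold change 0.52, limma adjusted p = 0.247).

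**Figure D3:**
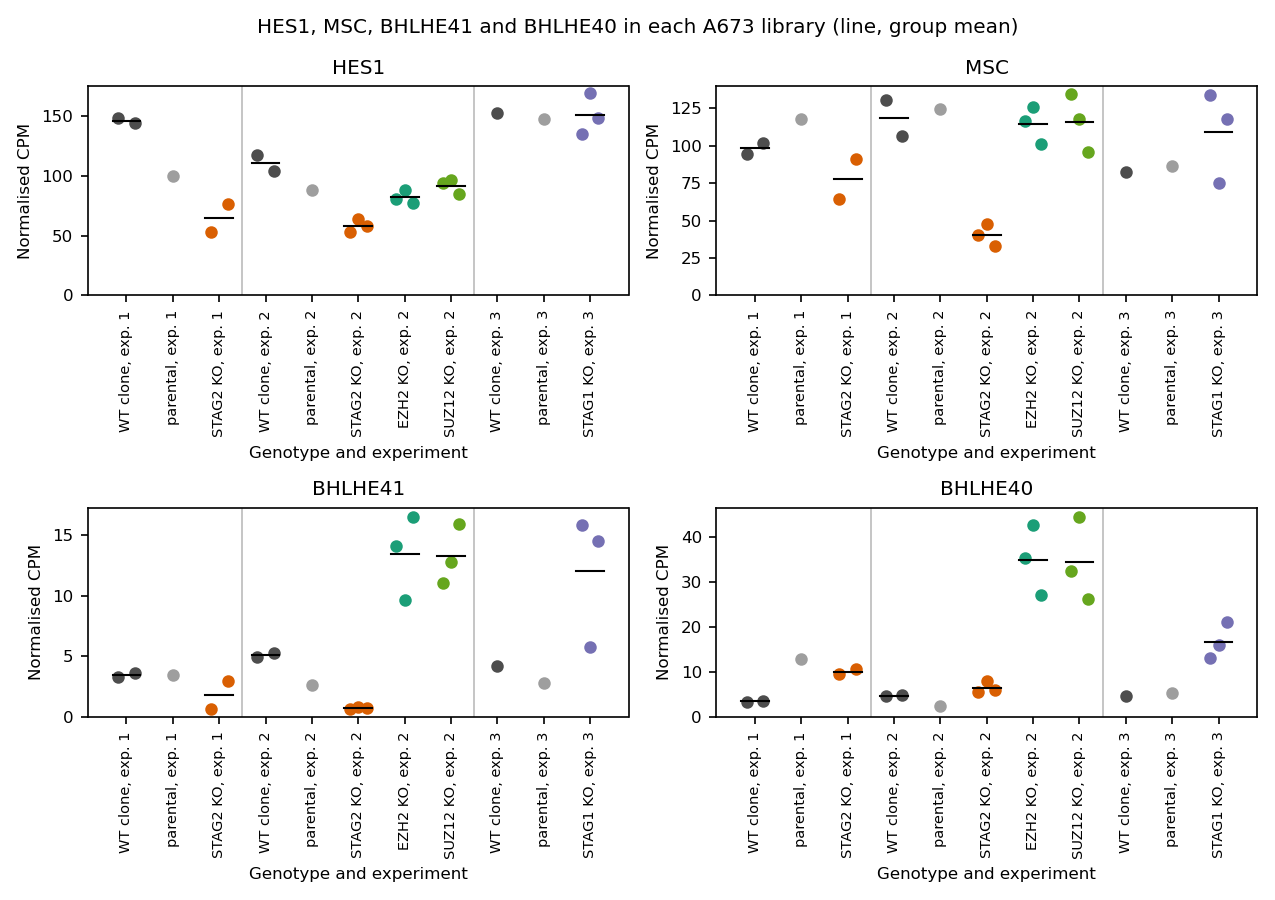
Normalised CPM of HES1, MSC, BHLHE41 and BHLHE40 in each A673 clone library, 1 point per library, by genotype and experiment, with a line at the mean of each group. HES1 and MSC are low in STAG2 KO, and BHLHE40 stands at 26.4 to 44.5 CPM in EZH2 KO and SUZ12 KO against 2.40 to 4.81 in the controls of experiment 2.

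Among the mesodermal members, MSC (ENSG00000178860), a repressor that holds back myogenic factors, fell in STAG2 KO clones. In experiment 1 MSC was 94.4, 101.9 and 117.8 CPM in WT clone a, WT clone b and parental, and 64.1 and 90.9 in STAG2 KO 5 and 24. In experiment 2 it was 130.2, 106.1 and 124.3 in the controls and 32.9, 40.5 and 47.8 in STAG2 KO 2, 3 and 5. All 5 KO libraries lay below all controls, with STAG2 KO 24 only slightly below WT clone a. The log2 fold change was −1.04 (SE 0.217, 95% interval −1.51 to −0.56, edgeR adjusted p = 0.0103). Within experiments it was −0.43 in experiment 1, which did not pass (edgeR adjusted p = 0.12), and −1.52 in experiment 2 (0.0115). After knockdown MSC was 494.7, 448.8 and 459.4 in controls 1, 2 and 3 and 423.8, 358.8 and 435.7 in siSTAG2 1, 2 and 3, all 3 below all controls, and it missed the threshold (log2 fold change −0.21, limma adjusted p = 0.0789). With the replicate number as a term it was called.

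In STAG1 KO 1, 5 and 7 MSC was 133.6, 75.3 and 117.8 against 86.4 and 82.4 in parental and WT clone, which overlap. It was 116.4, 125.9 and 100.9 in EZH2 KO and 134.7, 117.6 and 95.9 in SUZ12 KO, around the controls of that experiment. The libraries carry no strand information, and MSC-AS1 is transcribed from the opposite strand, sharing 14.8% of the 86-base windows of MSC transcripts. MSC-AS1 was 45.7, 42.7 and 42.5 CPM in the controls of experiment 1 and 25.3 and 22.2 in its STAG2 KO libraries. In experiment 2 it was 23.3, 23.6 and 22.6 in the controls and 19.2, 20.02 and 49.9 in STAG2 KO 2, 3 and 5. Reads from the opposite strands cannot be told apart where these genes overlap. In STAG2 KO 5 of experiment 2, MSC-AS1 was the highest while MSC was low.

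TWIST1 gave the largest fall among the 3 members called after knockdown. It was 167.7, 152.5 and 167.7 in controls 1, 2 and 3 and 87.7, 87.2 and 85.0 in siSTAG2 1, 2 and 3, with means of 162.7 ± 8.78 and 86.6 ± 1.4 (SD, n = 3 each). The groups were far apart (log2 fold change −0.90, SE 0.122, 95% interval −1.15 to −0.65, limma adjusted p = 4.45e-06). In the STAG2 KO clones TWIST1 was spread instead: 44.4 and 26.0 CPM in experiment 1, beside controls at 26.5, 23.6 and 32.7, and 59.5, 48.3 and 18.4 in STAG2 KO 2, 3 and 5 of experiment 2, beside 49.7, 50.9 and 50.9. Only STAG2 KO 5 of experiment 2 was well under its controls, and the group did not pass (log2 fold change 0.03, edgeR adjusted p = 0.972). The difference between clones and knockdown was not tested. HAND2, a factor of heart, limb and sympathetic neurons, was 31.5, 17.8 and 24.6 in EZH2 KO 1, 2 and 3, all below 38.2, 37.3 and 37.6 in WT clone 1, WT clone 2 and parental, and it did not pass (log2 fold change −0.53, edgeR adjusted p = 0.0979). The other KO libraries of experiment 2 also lay below those controls, at 25.53, 30.44 and 33.11 in SUZ12 KO 1, 2 and 3 (−0.27, edgeR adjusted p = 0.359) and 35.7, 26.4 and 27.0 in STAG2 KO 2, 3 and 5. HAND2 was called lower in EZH2 KO without EZH2 KO 1 (−0.74). HAND2-AS1, on the opposite strand, shares 18.4% of the 86-base windows of HAND2, where reads cannot be told apart.

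The clock factors BHLHE40 and BHLHE41, which repress through E-boxes of clock genes and respond to hypoxia, were already expressed in controls and rose upon PRC2 loss. BHLHE40 (ENSG00000134107, chromosome 3, bases 4979437 to 4985323, plus strand) was 4.62, 4.81 and 2.40 CPM in WT clone 1, WT clone 2 and parental of experiment 2. It was 35.3, 42.7 and 27.1 in EZH2 KO 1, 2 and 3 and 32.5, 44.5 and 26.4 in SUZ12 KO 1, 2 and 3. Each PRC2 KO library was above each control many times over, with means of 35.0 ± 7.83 and 34.5 ± 9.23 against 3.94 ± 1.34 (SD, n = 3 each). BHLHE40-AS1, opposite BHLHE40 in 10.3% of its 86-base windows, stayed at 0.499 CPM or less in the A673 clone libraries. BHLHE40 rose by a log2 fold change of 3.24 in EZH2 KO (SE 0.322, 95% interval 2.54 to 3.95, edgeR adjusted p = 0.000113) and 3.20 in SUZ12 KO (SE 0.321, 95% interval 2.50 to 3.90, 9.12e-05).

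BHLHE41 (ENSG00000123095, chromosome 12, bases 26120030 to 26125037, minus strand) was 4.96, 5.26 and 2.62 CPM in the same controls, 14.1, 9.67 and 16.5 in EZH2 KO and 11.0, 12.8 and 15.9 in SUZ12 KO. Again all 6 PRC2 KO libraries exceeded the controls. Its log2 fold changes were 1.74 in EZH2 KO (SE 0.311, edgeR adjusted p = 0.00343) and 1.70 in SUZ12 KO (SE 0.311, 0.00276). In STAG2 KO clones BHLHE41 lay low: 0.722, 0.687 and 0.788 in STAG2 KO 2, 3 and 5 of experiment 2, and 0.637 in STAG2 KO 5 of experiment 1. STAG2 KO 24 of experiment 1 held 3.0, within the controls of both experiments at 2.62 to 5.26 and just below the 3.33, 3.61 and 3.49 of its own, so the groups overlapped. The log2 fold change was −1.77 (SE 0.447, 95% interval −2.75 to −0.79, edgeR adjusted p = 0.0256), lower in 4 of 5 libraries than every control.

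BHLHE41 in STAG2 KO is the least stable of the 3 calls. Within experiments it was −0.93 in experiment 1 (edgeR adjusted p = 0.284) and −2.48 in experiment 2 (0.0268). The call was lost without STAG2 KO 5 of experiment 1 (0.0587), WT clone 1 (0.0597), WT clone 2 (0.0558), STAG2 KO 3 (0.0746) or STAG2 KO 2 (0.0698) of experiment 2, and with the WT clone as the only control (0.0552), within a range of 0.000693 to 0.284. After knockdown BHLHE41 was 14.3, 15.7 and 11.5 in controls 1, 2 and 3 and 8.88, 6.49 and 6.76 in siSTAG2, all lower, without passing (log2 fold change −0.83, limma adjusted p = 0.12). SSPN, which overlaps BHLHE41 on the opposite strand in 2.1% of its 86-base windows, was 26.3, 25.0 and 16.4 CPM in the controls of experiment 1 and 9.44 and 5.38 in STAG2 KO 5 and 24. SSPN in experiment 2 was 12.4, 15.7 and 8.59 in the controls and 13.7, 12.1 and 19.4 in STAG2 KO 2, 3 and 5, which overlap.

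In STAG1 KO 1, 5 and 7 BHLHE40 was 13.2, 15.9 and 21.2 CPM, against 5.37 and 4.74 in parental and WT clone, with means of 16.8 ± 4.07 (SD, n = 3) and 5.05 ± 0.449 (n = 2). All 3 lay above both controls (log2 fold change 1.73, SE 0.255, 95% interval 1.11 to 2.35, edgeR adjusted p = 0.0268). The library labelled STAG1 KO 1, which kept its STAG1 RNA, was the lowest of the 3. The adjusted p of BHLHE40 was 0.255 without parental, 0.172 without the WT clone and 0.0541 without STAG1 KO 5, within a range of 2.82e-07 to 0.255. BHLHE41 was 15.8, 5.76 and 14.5 in those KO libraries against 2.78 and 4.25, all higher, without passing (log2 fold change 1.77, SE 0.494, edgeR adjusted p = 0.0943). In STAG2 KO clones BHLHE40 was 9.55 and 10.6 in STAG2 KO 5 and 24 of experiment 1, beside 3.33, 3.61 and 12.9 in its controls. In experiment 2 it was 6.06, 5.55 and 8.03 in STAG2 KO 2, 3 and 5, above the controls of that experiment. The parental library of experiment 1, at 12.9, exceeded all 5 KO libraries. BHLHE40 was not called there (log2 fold change 0.69, edgeR adjusted p = 0.263) but was called without that library.

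The promoters of this pair are shown because both rose together on PRC2 loss and both bind CACGTG. Capitals mark E-boxes (CANNTG, the same on either strand), of which CACGTG is itself one.
BHLHE40, chr3:4979187-4979486, plus strand: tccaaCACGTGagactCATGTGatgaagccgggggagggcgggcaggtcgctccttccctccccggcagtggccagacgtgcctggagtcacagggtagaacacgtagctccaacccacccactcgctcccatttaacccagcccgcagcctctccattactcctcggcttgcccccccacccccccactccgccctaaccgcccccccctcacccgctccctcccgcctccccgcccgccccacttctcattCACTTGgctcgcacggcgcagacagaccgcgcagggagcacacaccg
BHLHE41, chr12:26124988-26125287, minus strand: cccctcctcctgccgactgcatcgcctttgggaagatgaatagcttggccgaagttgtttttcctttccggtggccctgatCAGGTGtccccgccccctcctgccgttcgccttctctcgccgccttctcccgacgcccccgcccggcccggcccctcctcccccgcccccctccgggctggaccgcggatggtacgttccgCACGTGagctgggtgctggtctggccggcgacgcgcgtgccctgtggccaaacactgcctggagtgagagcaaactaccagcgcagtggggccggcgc
The BHLHE40 window holds 3 E-boxes and the BHLHE41 window 2, with 1 CACGTG in each. CACGTG occurs in 7.3% of all windows, on either strand, and in 2 of the 36 member windows, which are these.

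Of the proneural and neuronal members, ATOH8 and BHLHE22 were called lower on PRC2 loss. ATOH8 (ENSG00000168874), which acts in neural, muscle and vessel development, was 10.7, 10.1 and 15.3 CPM in WT clone 1, WT clone 2 and parental, 4.43, 4.70 and 3.10 in EZH2 KO 1, 2 and 3, and 5.66, 4.36 and 5.35 in SUZ12 KO. All 6 KO libraries were below all controls. ATOH8 fell by 1.48 on the log2 scale in EZH2 KO (SE 0.286, edgeR adjusted p = 0.00526), with log2 fold change −1.16 in SUZ12 KO (SE 0.283, 0.0131). The SUZ12 KO call was lost without parental (0.0556) or without SUZ12 KO 2 (0.0584), in a range of 0.000496 to 0.0584.

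BHLHE22 (ENSG00000180828), a repressor of cortical and retinal neurons, was 20.7, 21.0 and 15.5 in the same controls, 5.40, 2.24 and 5.44 in EZH2 KO and 4.15, 8.12 and 3.51 in SUZ12 KO. Again no KO library reached a control (log2 fold change −2.04, SE 0.536, edgeR adjusted p = 0.0248 in EZH2 KO, and −1.78, SE 0.531, 0.0336 in SUZ12 KO). Leaving out WT clone 1 or 2, EZH2 KO 1 or EZH2 KO 2 ended the EZH2 KO call (0.0722, 0.0734, 0.0527 and 0.085). Leaving out WT clone 1 or 2, parental, SUZ12 KO 1 or SUZ12 KO 3 ended the SUZ12 KO call (0.0858, 0.0887, 0.0533, 0.112 and 0.0876). Over all alternatives the adjusted p of BHLHE22 ranged from 0.00123 to 0.085 in EZH2 KO and from 0.00336 to 0.112 in SUZ12 KO. After knockdown BHLHE22 was 224.9, 203.7 and 182.3 in controls 1, 2 and 3 and 132.0, 129.8 and 132.3 in siSTAG2, with no overlap. It fell there by 0.62 on the log2 scale (SE 0.111, 95% interval −0.85 to −0.40, limma adjusted p = 0.000176). In STAG2 KO clones it ranged from 3.94 to 19.4 across 5 libraries and from 4.19 to 21.0 across their 6 controls, and it was not called (0.10, edgeR adjusted p = 0.93).

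NEUROD6, a factor of maturing cortical neurons, was at the edge of detection in A673. It was 0.350, 0.106 and 0.209 CPM in the controls of experiment 1 and 1.33 and 0.396 in STAG2 KO 5 and 24, then 0.912, 0.77 and 0.39 in the controls of experiment 2 and 2.72, 0.951 and 0.735 in STAG2 KO 2, 3 and 5. The groups overlap in experiment 2 (log2 fold change 1.45, edgeR adjusted p = 0.0901). In EZH2 KO it was 0.0482, 0.382 and 0 and in SUZ12 KO 0, 0.136 and 0, all under those controls, without passing (edgeR adjusted p = 0.188 and 0.0529). In SUZ12 KO it was called lower by DESeq2, with no filter on counts, and by edgeR without EZH2 KO 2, EZH2 KO 3, SUZ12 KO 2, STAG2 KO 2 or STAG2 KO 5 (log2 fold changes −6.65 to −3.6).

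A last set of members was near absent in the controls of experiment 2 and counted on PRC2 loss: TAL1, a master factor of blood and endothelium, TCF15, of somite mesoderm, TWIST2, of dermal and bone precursors, and OLIG3, of dorsal spinal cord progenitors. Raw counts of TAL1 (ENSG00000162367, chromosome 1) in WT clone 1, WT clone 2 and parental were 1, 0 and 1, against 90, 91 and 150 in EZH2 KO 1, 2 and 3 and 240, 258 and 210 in SUZ12 KO. TCF15 (ENSG00000125878, chromosome 20) had 0, 0 and 2 in the controls, 29, 25 and 64 in EZH2 KO and 77, 70 and 80 in SUZ12 KO. TWIST2 (ENSG00000233608, chromosome 2) had 1, 1 and 0 in the controls, 14, 15 and 80 in EZH2 KO and 110, 93 and 53 in SUZ12 KO. None of these 3 genes overlapped between controls and PRC2 KO. OLIG3 (ENSG00000177468, chromosome 6) had no count in the 3 controls, 16, 9 and 12 in EZH2 KO and 36, 19 and 34 in SUZ12 KO. A gene on the opposite strand shares 10.5% of the 86-base windows of TAL1, where reads cannot be told apart. The 3 STAG2 KO libraries of the experiment (2, 3 and 5) held 0, 3 and 9 counts of TAL1, 0, 0 and 3 of TCF15, 0, 1 and 0 of TWIST2 and none of OLIG3. STAG2 KO 5 thus held more TAL1 and TCF15 than any control, and STAG2 KO 3 more TAL1. For each gene these counts stayed below those of every PRC2 KO library.

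As ratios of summed counts scaled to depth, with exact 95% counting intervals, TAL1 was 141 times its control in EZH2 KO (38.7 to 1170) and 296 times in SUZ12 KO (81.7 to 2450). TCF15 was 50.2 (13.6 to 419) and 94.9 times (26 to 789), and TWIST2 46.4 (12.5 to 388) and 107 times (29.3 to 889). Of the 109 TWIST2 counts in EZH2 KO, 80 were in EZH2 KO 3, so that ratio leans on 1 library. OLIG3 was at least 10.5-fold higher in EZH2 KO and at least 24.8-fold higher in SUZ12 KO, against a floor of 3 counts over the control group. These intervals and floors cover counting error only. Their edgeR calls add nothing to these counts where the genes entered the test through the KO libraries. With no filter on counts, all 4 were called by edgeR in both genotypes. TAL1 also differed among controls of experiment 1, with 23 and 26 counts in WT clone a and b, 3 in parental, 0 in STAG2 KO 5 and 2 in STAG2 KO 24. OLIG2, a progenitor factor of motor neurons and oligodendrocytes, had no count in the controls of experiment 2, 1, 1 and 3 counts in EZH2 KO and 8, 5 and 4 in SUZ12 KO, at least 4.74-fold higher in the latter. HEY2 held 2 counts in those controls and 17 in EZH2 KO (ratio 7.23, 1.72 to 64.5) and 14 in SUZ12 KO (5.86, 1.34 to 53.1). OLIG2 and HEY2 did not pass the count filter. With no filter edgeR called OLIG2 in SUZ12 KO, and lower in STAG2 KO than in PRC2 KO.

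The promoters of TWIST2 and OLIG3 are printed as examples of genes that went from near 0 to counted on PRC2 loss. Capitals mark any N-box (CACNAG or CTNGTG) or E-box (CANNTG).
TWIST2, chr2:238847835-238848134, plus strand: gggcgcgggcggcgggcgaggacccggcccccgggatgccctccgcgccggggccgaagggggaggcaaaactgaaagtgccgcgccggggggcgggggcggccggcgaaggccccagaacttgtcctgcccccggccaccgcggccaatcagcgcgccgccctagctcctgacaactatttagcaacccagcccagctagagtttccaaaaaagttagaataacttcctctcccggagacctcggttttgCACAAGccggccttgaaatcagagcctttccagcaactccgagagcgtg
OLIG3, chr6:137494345-137494644, minus strand: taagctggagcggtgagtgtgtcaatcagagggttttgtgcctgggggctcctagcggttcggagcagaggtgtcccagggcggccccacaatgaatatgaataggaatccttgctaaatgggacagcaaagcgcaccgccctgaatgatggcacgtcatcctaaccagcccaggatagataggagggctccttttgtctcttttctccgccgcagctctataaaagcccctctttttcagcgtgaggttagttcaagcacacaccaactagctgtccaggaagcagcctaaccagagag
The TWIST2 window holds 1 N-box and no E-box, with 66.7% G and C and 29 CpG pairs. The OLIG3 window holds neither motif, with 53.7% G and C and 10 CpG pairs. Among the other windows shown, HES1 has 21 CpG pairs, BHLHE40 22 and BHLHE41 29, where the median of all windows is 14.

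**Figure D4:**
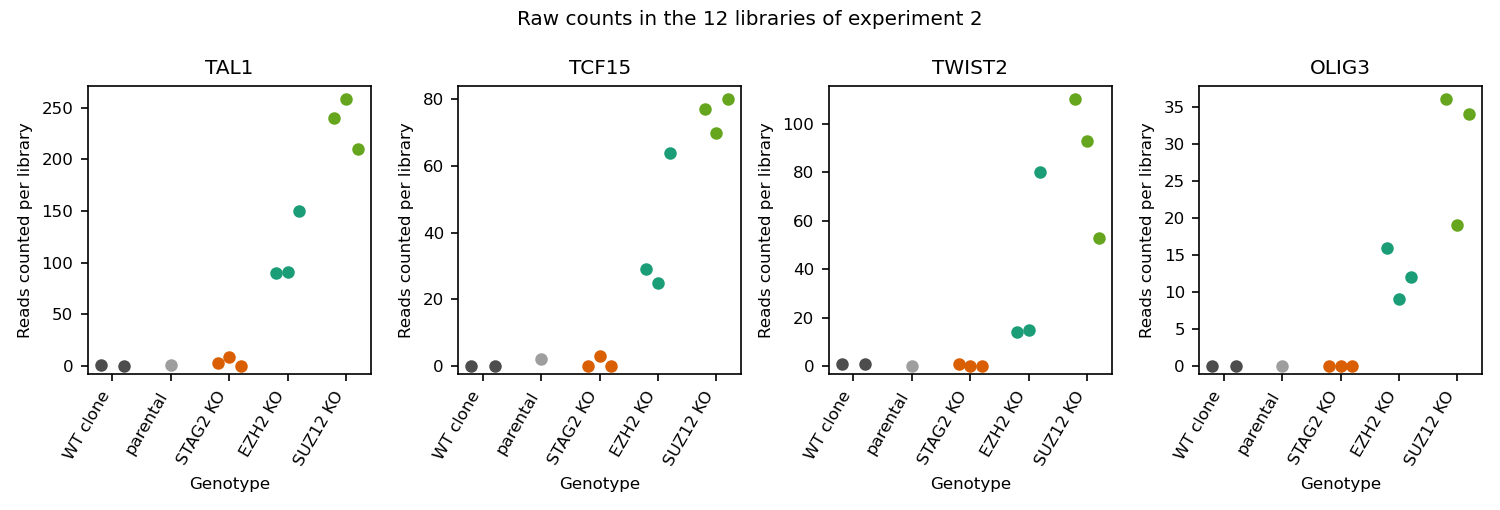
Raw counts of TAL1, TCF15, TWIST2 and OLIG3 in each of the 12 libraries of experiment 2, by genotype. Controls and STAG2 KO libraries hold 0 to 9 counts and EZH2 KO and SUZ12 KO libraries 9 to 258.

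Whether the effect of losing STAG2 differs from that of losing STAG1 was tested directly, each against the controls of its own experiments. MSC, HES1 and BHLHE41 were lower in STAG2 KO relative to STAG1 KO, and HES7 was higher. Of 15 members tested by edgeR 4 were called, 1 higher and 3 lower, beside 6.01% of 15041 genes called, 2.27% higher and 3.74% lower, with medians of −0.58 for members and 0 for all genes. The log2 differences were −3.55 for BHLHE41 (SE 0.786, edgeR adjusted p = 0.0162), −1.42 for MSC (SE 0.391, 0.0455), −0.92 for HES1 (SE 0.232, 0.0313) and 2.17 for HES7 (SE 0.562, 0.0351). For BHLHE41 the STAG2 KO libraries held 0.637 to 3.0 CPM and the STAG1 KO libraries 5.76 to 15.8, with no overlap. HES1 and HES7 did not overlap either, while MSC did, at 32.9 to 90.9 in STAG2 KO and 75.3 to 133.6 in STAG1 KO. These libraries are from different experiments, so their levels hold any difference between experiments as well.

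These calls rest on the 2 controls of experiment 3: without its parental or its WT clone library, no member was called. The count was 1 without WT clone 1 or WT clone 2 of experiment 2 or STAG1 KO 7, each time BHLHE41. It was 2 without STAG2 KO 5 of experiment 1, STAG2 KO 3, or the library labelled STAG1 KO 1, which kept STAG1 RNA. Over its alternatives the adjusted p ranged from 0.000108 to 0.165 for BHLHE41, 0.00495 to 0.197 for HES1, 0.00325 to 0.232 for HES7 and 0.00709 to 0.217 for MSC. BHLHE41 was called in 16 of 18, HES1 in 11, HES7 in 8 and MSC in 7. Without STAG2 KO 5 of experiment 2, HEY1 was also called, lower in STAG2 KO relative to STAG1 KO (−2.19).

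STAG2 KO and PRC2 KO clones of experiment 2 were also compared directly, as STAG2 KO minus the mean of EZH2 KO and SUZ12 KO. By edgeR 3 of 18 members were called higher in STAG2 KO and 11 lower, beside 29.7% of 15130 genes called, 13.8% higher and 15.9% lower, with medians of −1.1 and −0.007. OLIG3, TWIST2, TCF15 and TAL1, which passed the filter only through the PRC2 KO libraries, had to be among the lower. NEUROD6, which passed it only with the STAG2 KO libraries, was favoured among the higher. Without these 5, 2 of 13 members were higher and 7 lower, with a median of −0.59, beside 26.8% of the 13338 genes that passed without either kind of library, 15.4% higher and 11.4% lower, with a median of 0.057. Of the 13, BHLHE41 differed by −4.19 (SE 0.34, edgeR adjusted p = 1.43e-05), BHLHE40 by −2.42 (SE 0.287, 0.000156) and MSC by −1.52 (SE 0.161, 7.36e-05). In each of these 3 every STAG2 KO library lay below every PRC2 KO library. HES4, HES6 and HEYL followed at −1.09, −1.10 and −1.11 (edgeR adjusted p = 0.016, 0.019 and 0.0266), beside HES1 at −0.59. Higher in STAG2 KO were ATOH8 (1.21, SE 0.235, edgeR adjusted p = 0.00289) and BHLHE22 (1.33, 0.0373). NEUROD6 was called higher with no filter on counts as well. STAG2 KO 5, at 3.94 CPM of BHLHE22, overlapped the PRC2 KO libraries at 2.24 to 8.12, while ATOH8 and NEUROD6 did not overlap.

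The smaller differences there rest on single libraries, and all genes called went from 4495 to 6601 without STAG2 KO 5. Without STAG2 KO 2 the calls of BHLHE22, HES4, HES6 and HEYL were lost (edgeR adjusted p = 0.223, 0.0544, 0.0517 and 0.0932), and without STAG2 KO 3 those of BHLHE22, HES6 and HEYL (0.101, 0.0823 and 0.0734). BHLHE22 was also lost without WT clone 1 (0.0523), WT clone 2 (0.0521), EZH2 KO 2 (0.0659), SUZ12 KO 1 (0.0766) or SUZ12 KO 3 (0.0653), and HEYL without EZH2 KO 2 (0.0504) or SUZ12 KO 2 (0.055). Over the alternatives the adjusted p ranged from 0.00233 to 0.223 for BHLHE22, 0.00127 to 0.0544 for HES4, 0.00198 to 0.0823 for HES6 and 0.00365 to 0.0932 for HEYL.

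The 2 PRC2 genotypes were compared directly, and no member was called. By edgeR 0 of 18 members were called in EZH2 KO minus SUZ12 KO, 1 had an unadjusted p under 0.05 (OLIG3, log2 difference −1.25) and DESeq2 called 0. Of 15130 genes 1 was called (0.00661%), which was EZH2 itself. The members' median was −0.24 and that of all genes 0.008. TAL1, TCF15, TWIST2 and OLIG3 had lower values in EZH2 KO, at −1.06, −0.94, −1.21 and −1.25, with 95% intervals reaching from −2.27 to 0.15 for TAL1 and from −2.41 to −0.10 for OLIG3.

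The WT clone was compared with parental cells, which shows how 1 clone differs from its line. Their libraries of experiments 1 to 3 gave 0 called members of 15 by edgeR, 3 at an unadjusted p under 0.05 and 0 by DESeq2, beside 2.75% of 14521 genes called, and medians of −0.15 and −0.015. The 3 were HES1 (log2 difference of WT clone over parental 0.32, edgeR adjusted p = 0.134), TAL1 (2.51, 0.139) and BHLHE41 (0.49, 0.296). HES1 was 144.1 and 147.7 CPM in WT clone against 99.4 in parental in experiment 1, 103.6 and 117.0 against 88.3 in experiment 2, and 152.1 against 147.1 in experiment 3. Without either library of experiment 3, HES1 and HEYL were called (0.41 and 0.83). The STAG2 KO clones derive from the WT clone, and with that clone as the only control HES1 and MSC were called lower.

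The pairs of SK-N-MC and A4573 have 1 library per arm, so their differences have no replicate check and no test. They are given as the library without STAG2 over the library with it, and a log2 difference of at least 1 either way was counted. In SK-N-MC 7 of 21 members with at least 10 counts passed it, 3 higher and 4 lower without STAG2, beside 21.6% of 16413 genes, 10.2% higher and 11.4% lower. In A4573 11 of 24 passed it, 3 higher and 8 lower, beside 21.8% of 16124 genes, 7.76% higher and 14.1% lower. The members' median was 0.12 in SK-N-MC and −0.56 in A4573, against −0.012 and 0.001 for all genes.

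HES1 was lower without STAG2 in both lines. It was 280.3 CPM in A4573 STAG2 KI and 45.5 in A4573 WT, a log2 difference of −2.57 (ratio 0.168, exact 95% counting interval 0.159 to 0.177, from 1446 and 8981 counts). In SK-N-MC it was 100.8 in WT and 67.0 in STAG2ko, a log2 difference of −0.61 (ratio 0.656, 0.621 to 0.693), which is under the fold used. BHLHE40 was also lower without STAG2 in both, from 10.6 to 1.57 CPM in A4573 (log2 difference −2.66) and from 6.76 to 2.26 in SK-N-MC (−1.57). MSC split: it was 675.2 CPM in A4573 STAG2 KI and 307.1 in A4573 WT (−1.09), but 0.0292 in SK-N-MC WT and 1.78 in STAG2ko (4.33, from 1 and 56 counts; ratio 60.4, 10.4 to 2430). MSC-AS1, on the opposite strand, lay the same way in both pairs, at 77.9 in A4573 STAG2 KI and 33.2 in A4573 WT, and 0.437 in SK-N-MC WT and 3.31 in STAG2ko, and reads of the overlap cannot be told apart. HAND1, a factor of heart and trophoblast, was lower without STAG2 in both (−1.41 in A4573 and −1.95 in SK-N-MC).

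The other members past the fold in A4573 were higher BHLHE22 (537 against 131 counts, 2.08), HES6 (1017 against 481, 1.14) and ATOH1 (34 against 3, 2.90), and lower HES4 (93 against 380, −1.95), OLIG2 (529 against 1492, −1.43), HES7 (367 against 810, −1.08) and TWIST2 (56 against 126, −1.08). In SK-N-MC they were higher NEUROD6 (145 against 13, 3.39) and ASCL5 (1.02), and lower HEY1 (66 against 283, −1.96) and ATOH7 (−2.15). The lines differed in which members they held: NEUROD6 was 76.2 and 97.9 CPM in A4573 WT and STAG2 KI and 0.379 and 4.62 in SK-N-MC WT and STAG2ko, and OLIG2 16.6 and 46.6 against 0 and 0.0319. HES4 was 62.7 and 70.0 in SK-N-MC WT and STAG2ko and 2.92 and 11.9 in A4573 WT and STAG2 KI.

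**Figure D5:**
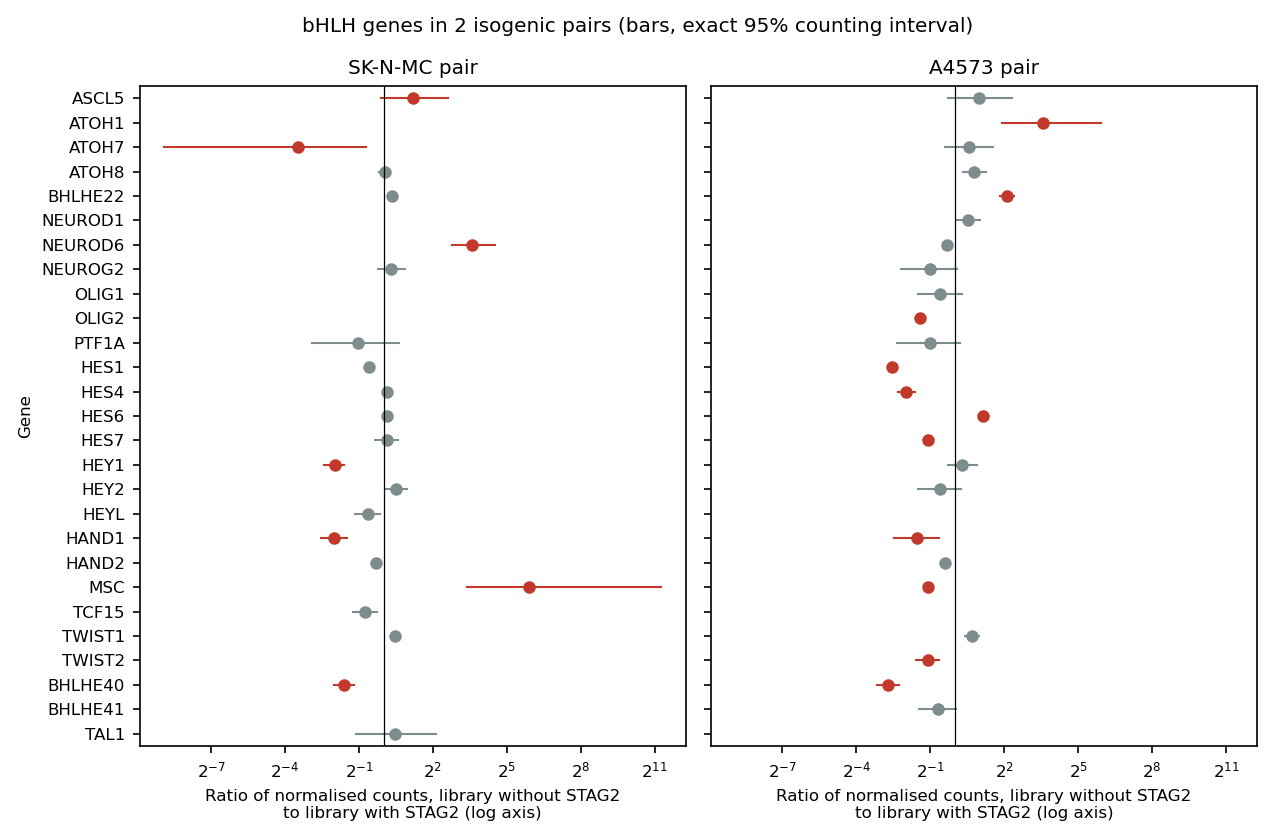
Ratio of the library without STAG2 to the library with it for each member with at least 10 counts in the SK-N-MC or A4573 pair, on a log axis, with exact 95% counting intervals and 1 library per arm. Red points have a log2 difference of at least 1 either way; HES1 lies at 0.168 in A4573 and 0.656 in SK-N-MC.

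Partners, pathway genes and targets of the members were read from lists, whose counts and medians describe them without a test of the list. In experiment 2 CDH5, CKM, DCX, DLL1, EBF2, ELAVL4, EPCAM, NHLH2, PECAM1, STMN2 and SYT4 passed the count filter only with the EZH2 KO and SUZ12 KO libraries, so that their higher values there were favoured. TLE1 passed it only with the PRC2 KO and the STAG2 KO libraries together. Of the E proteins and ID inhibitors, 7 genes all tested, TCF4 was called lower in STAG2 KO (−0.68) and after knockdown (−0.42). Knockdown also called TCF12 lower (−0.35) and TCF3 higher (0.19), STAG1 KO called TCF12 higher (0.43), and EZH2 KO and SUZ12 KO each called TCF3 lower (−0.61 and −0.57). The list's medians were 0.09 in STAG2 KO, 0.12 after knockdown, 0.27 in STAG1 KO, −0.37 in EZH2 KO and −0.28 in SUZ12 KO. Of the ID genes, DESeq2 called ID1 in STAG1 KO and ID4 in EZH2 KO, which edgeR did not call.

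The Notch pathway list of 24 genes, receptors, ligands and processing enzymes, went both ways. In STAG2 KO 1 of 22 tested was called higher, the ligand JAG2 (1.34), and 4 lower, among them the coactivator MAML2 (−2.75) and the receptor NOTCH1 (−0.70), with a median of −0.09. After knockdown 3 of 20 were called higher, led by DTX1 (1.15) and JAG2 (1.14), and 4 lower, led by NOTCH2 (−0.49), with a median of −0.04. STAG1 KO gave 1 higher, LFNG (2.22), and 3 lower, led by DTX1 (−3.36) and DLL3 (−2.54), with a median of −0.01. EZH2 KO gave 4 higher, led by DTX1 (2.71), PSEN2 (2.14) and JAG2 (1.84), and 2 lower, and SUZ12 KO 5 higher, led by DLL1 (3.96, 1 of those favoured by the filter), DTX1 (3.75) and PSEN2 (2.08), and 3 lower, with medians of −0.03 and −0.02. JAG2 was thus called higher in STAG2 KO, after knockdown, and in EZH2 KO and SUZ12 KO.

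Of the 5 Groucho corepressors, through which HES proteins repress, none was called in STAG2 KO (edgeR 0 of 5, 0 at an unadjusted p under 0.05, DESeq2 0, median −0.10) or in EZH2 KO (edgeR 0 of 5, 2 at an unadjusted p under 0.05, DESeq2 2, median 0.30). SUZ12 KO called TLE2 (3.07) and TLE3 (0.54) higher by edgeR, with a median of 0.58. DESeq2 did not call TLE2 there and called TLE3, TLE4 and TLE5 (edgeR log2 fold changes −0.63 for TLE4 and 0.58 for TLE5). STAG1 KO called TLE2 (−2.91) and TLE5 (−0.56) lower of 4, with a median of −0.47. Knockdown called TLE3 higher (0.23) and TLE4 lower (−0.33), with a median of −0.09. The list of 16 muscle targets was mostly silent: 3 were tested in STAG2 KO (edgeR 0 called, 1 at an unadjusted p under 0.05, DESeq2 1, median −0.93) and 2 in STAG1 KO (edgeR 0 called, 1 at an unadjusted p under 0.05, DESeq2 1, median −0.92). The creatine kinase gene CKM, favoured by the filter, was the 1 call of 4 in EZH2 KO (3.31, median −0.02) and in SUZ12 KO (3.91, median 0.15), and TNNT2 the 1 of 2 after knockdown (−1.26, median −0.38).

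Of the neuronal targets, 16 genes, 12 were tested on PRC2 loss. EZH2 KO called 5 of 12 higher (DCX, EBF2, NHLH2, STMN2 and SYT4) and 2 lower (GAP43, −2.80, and NEFL, −2.14), and SUZ12 KO 7 higher, those 5 with ELAVL3 and ELAVL4, and 3 lower (GAP43, −2.62, NEFL, −1.99, and TUBB3). SYT4 had log2 fold changes of 5.49 and 4.69 and EBF2 4.25 and 5.17. All 5 higher in EZH2 KO, and 6 of the 7 in SUZ12 KO, are among the genes that passed the filter only with the PRC2 KO libraries, and the 6 others gave 2 lower in EZH2 KO (median −1.11) and 1 higher, ELAVL3, and 3 lower in SUZ12 KO (median −0.96). Over all 12 the median was 2.68 in EZH2 KO and 3.29 in SUZ12 KO, or 1.55 and 3.02 with DCX, ELAVL4, NHLH2 and STMN2, at most 3 counts in controls, set at their bound. In STAG2 KO 3 of 7 were called, all lower: SYT4 (−2.88), GAP43 (−2.83) and NEFL (−2.19), with a median of −1.11. Knockdown called NEFM (1.12), NEFL (0.72) and EBF3 (0.34) higher and ELAVL3 lower of 6 (median 0.29), and STAG1 KO called EBF3 (−1.11) lower of 8 (median 0.38). NEFL was thus lower in the STAG2 KO clones and higher after acute knockdown, and the difference was not tested.

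In the direct comparison of STAG2 KO with STAG1 KO effects, TCF4 (−1.03) was the 1 call of 7 E proteins and ID genes (median −0.17). Of 22 Notch genes 1 was higher and 4 lower (median 0.08), led by MAML2 (−2.85), LFNG (−2.73) and DLL3 (2.50). Of 8 neuronal targets EBF3 was higher (1.71) and GAP43 lower (−5.31), with a median of −1.21. Groucho genes had 0 calls of 5 by edgeR, 2 at an unadjusted p under 0.05 and 1 by DESeq2 (median 0.44), and muscle targets 0 of 4, 0 and 0 (median 0.33). In STAG2 KO minus PRC2 KO, TCF3 was higher (0.61, median of 7 genes 0.13), 2 of 22 Notch genes were higher and 4 lower, led by PSEN2 (−1.71), MAML2 (−1.49) and NOTCH4 (−1.13) (median 0.03), TLE4 was higher (0.84) and TLE3 lower (−0.53) of 5 (median −0.40), CKM, favoured by the filter, was lower of 4 (median −0.82), and of 12 neuronal targets EBF3 was higher and 7 lower (median −2.69). Of those 7 only ELAVL3 (−1.80) passed the filter without the PRC2 KO libraries. Of all 12 neuronal targets 6 passed it without them, with a median of 0.65. Between EZH2 KO and SUZ12 KO edgeR and DESeq2 called 0 genes of all 5 lists, with 0, 0, 2, 0 and 1 at an unadjusted p under 0.05 (E proteins and ID, Notch, Groucho, muscle, neuronal; medians −0.14, −0.03, −0.26, −0.48 and −0.28). Between WT clone and parental, TLE1 (−3.85, median of 5 genes 0.11) and SYT4 (1.72, median of 8 genes 0.24) were the calls. The E proteins and ID list and the muscle list had 0 by edgeR and DESeq2, with 2 and 0 at an unadjusted p under 0.05 (medians −0.05 and 0.32), and the Notch list 0 by edgeR, 2 at an unadjusted p under 0.05 and 1 by DESeq2 (median 0.07).

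Markers of cell types were read beside the members. Of 8 Ewing sarcoma markers, CD99 has no count in the count tables, while it stood at 5944 to 6707 in the A673 controls of experiment 4. The missing counts therefore do not show that the clones lack CD99, and only the sums of experiment 4 include it. The list summed to 3677, 3679 and 3237 CPM in the controls of experiment 1 and 2887, 2801 and 2978 in those of experiment 2, with CCND1 the most abundant. In STAG2 KO it summed to 2183 and 2920 in experiment 1 (STAG2 KO 5 and 24) and 2184, 2163 and 2158 in experiment 2 (2, 3 and 5). There BCL11B (0.56) and NR0B1 (0.75) were called higher and CCND1 (−0.59) and PRKCB (−1.0) lower of 7 (median 0.39). The sums were 2903, 3212 and 2778 in EZH2 KO, 3059, 2735 and 3154 in SUZ12 KO, and 4039 and 4735 in the parental and WT clone libraries of experiment 3 beside 3904, 4310 and 4758 in STAG1 KO. NKX2-2 (1.74 and 2.03) and PRKCB (1.19 and 1.48) were called higher in EZH2 KO and SUZ12 KO, LIPI lower in SUZ12 KO (−1.15), and LIPI higher (0.72) and BCL11B lower (−1.21) in STAG1 KO, of 7 each (medians 0.27, 0.35 and −0.04). Knockdown called 2 of 8 higher and 4 lower, led by CD99 (−0.75) and STEAP1 (−0.63) (median −0.10), with summed deposited values of 26390, 25670 and 26710 in controls and 21260, 21860 and 22060 in siSTAG2.

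Fibroblast and mesenchymal markers (COL1A1, COL1A2, DCN, LUM, PDGFRA and THY1) did not move as one with STAG2. Their sum was 1690, 1695 and 1317 CPM in the controls of experiment 1 and 567 and 398 in STAG2 KO 5 and 24. In experiment 2 it was 1830, 1598 and 905 in the controls and 440, 419 and 392.2 in STAG2 KO 2, 3 and 5, every KO library below every control. DCN (−4.07), LUM (−3.39) and COL1A2 (−2.99), of which COL1A2 is the most abundant, were among 4 of 6 called lower (median −2.28). THY1 went the other way in experiment 1, at 120.3, 118.8 and 136.3 in the controls and 286 and 296.4 in STAG2 KO 5 and 24. THY1 overlapped in experiment 2, at 169.6, 145 and 197 in the controls and 198.7, 225.2 and 150.7 in STAG2 KO 2, 3 and 5, and it was not called (0.66, edgeR adjusted p = 0.0509). After knockdown the summed deposited values were 4776, 4199 and 4610 in controls and 2744, 2727 and 2642 in siSTAG2, with 4 of 5 genes called lower, led by LUM (−3.38), and THY1 higher (0.48), at a median of −1.88. The sum was 1156, 1022 and 1038 in EZH2 KO and 850, 805 and 765 in SUZ12 KO, with PDGFRA called higher (1.13 and 1.59) and COL1A2 lower (−1.58 and −1.64) of 6 in each (medians 0.33 and −0.02). In experiment 3 it was 1742 and 2130 in parental and WT clone and 3379, 2954 and 2913 in STAG1 KO, where COL1A1 was higher (3.27) and LUM lower (−5.08) of 6 (median −0.57). In the A4573 pair it was 258.1 in STAG2 KI and 127 in WT, mostly THY1 (221.3 and 108.3). COL1A2 was near absent there, at 0.0312 and 0. In the SK-N-MC pair the sum was 690.7 in WT and 195.4 in STAG2ko, where MSC rose. Within that pair COL1A2 fell without STAG2 (530 against 17259 counts, −4.91) and DCN rose (532 against 50, 3.47). The part of these genes, or of cells expressing them, in the values of HES1 and MSC was not tested.

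Epithelial markers, led by KRT18, summed to 200.5, 197.1 and 242.4 CPM in the controls and 212.3 and 369.4 in STAG2 KO 5 and 24 of experiment 1. In experiment 2 the sums were 420.0, 363 and 373 in the controls, 214, 212 and 98.0 in STAG2 KO 2, 3 and 5, 965, 676 and 923 in EZH2 KO and 426, 1243 and 922 in SUZ12 KO, and in experiment 3 they were 150.5 and 186.4 in parental and WT clone and 421, 253 and 462 in STAG1 KO. KRT8 was called lower in STAG2 KO of 2 tested (−1.41, median −0.87), higher in EZH2 KO of 3 (3.73, median 1.32) and, with EPCAM (3.52), in SUZ12 KO of 3 (4.05, median 3.52). STAG1 KO gave 0 of 2 by edgeR, 2 at an unadjusted p under 0.05 and 1 by DESeq2 (median 1.6), and knockdown called KRT18 lower of 2 (−0.33, median −0.26). EPCAM passed the filter only with the PRC2 KO libraries, and EZH2 KO 1 (0.0964 CPM) lay below WT clone 1 (0.171). KRT18 was called in neither genotype (0.46 and 0.11), and SUZ12 KO 1 at 252.8 lay below all controls, at 389.6, 336.9 and 334.3. KRT8 was 492.6, 284.5 and 413.5 in EZH2 KO and 172.9, 874.2 and 452.6 in SUZ12 KO against 30.2, 26.4 and 38.7 in the controls, and its part in the values of BHLHE40 and BHLHE41 was not tested.

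Endothelial and leukocyte markers were near absent from A673. Endothelial markers, led by PECAM1, summed to 6.40 CPM or less in each A673 clone library, with PECAM1 called higher in EZH2 KO (1.95) and SUZ12 KO (2.25) of 2 tested (medians 1.48 and 1.9), both favoured by the filter. None was tested in STAG2 KO or after knockdown, and in STAG1 KO edgeR called 0 of 1 (0 at an unadjusted p under 0.05, DESeq2 0, value 0.78). Leukocyte markers, led by CD68, summed to 10.3 CPM or less there. The 1 tested was not called by edgeR in STAG2 KO, STAG1 KO, EZH2 KO or SUZ12 KO (values −0.09, 1.43, 1.18 and −0.23, with 0, 1, 1 and 0 at an unadjusted p under 0.05 and by DESeq2), and none was tested after knockdown. In SK-N-MC STAG2ko the leukocyte sum was 59.1 CPM, against 6.44 in SK-N-MC WT, and its part in the differences of that pair was not tested.

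In the direct comparisons the markers of STAG2 KO minus STAG1 KO gave 1 higher and 1 lower of 7 Ewing genes (median −0.52), 2 lower of 6 fibroblast genes (−1.57) and KRT8 lower of 3 epithelial genes (−1.34). Endothelial genes there had 0 of 2 by edgeR, 1 at an unadjusted p under 0.05 and 0 by DESeq2 (−1.67), and leukocyte genes 0 of 1, 1 and 1 (−1.54). STAG2 KO minus PRC2 KO gave 2 higher and 3 lower of 7 Ewing genes (−0.39), 4 lower of 6 fibroblast genes (−2.28), 2 lower of 2 endothelial, both favoured by the filter (−2.32), 1 lower of 1 leukocyte (−1.06) and 2 lower of 3 epithelial genes (−1.32). EZH2 KO minus SUZ12 KO gave 0 in all 5 lists by edgeR and DESeq2, with 1, 0, 0, 1 and 1 at an unadjusted p under 0.05 (Ewing, fibroblast, endothelial, leukocyte, epithelial; medians −0.08, 0.35, −0.42, 1.42 and −0.32). WT clone over parental gave COL1A2 (0.68) as the 1 fibroblast call of 6 (0.09). There edgeR and DESeq2 called 0 of 7 Ewing genes (2 at an unadjusted p under 0.05, median 0.13), 0 of 1 leukocyte gene (0, −0.32) and 0 of 2 epithelial genes (0, −0.12), and no endothelial gene was tested.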

How the data were processed

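Bulk RNA was sequenced from oligo(dT)-primed, non-directional libraries. The submitters' processing notes name FastQC, Bowtie 0.12.7, SAMtools 0.1.16, TopHat2 2.0.0, DESeq2 and the build hg38. The authors deposited raw counts per gene symbol for experiments 1 to 3 and the pairs, and for experiment 4 normalised signal per Ensembl gene, whose values are whole reads times 1 factor per library.

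Counts were tested by the quasi-likelihood method of edgeR 4.0.16 (R 4.3.3) after TMM scaling and its filterByExpr step, with experiment as a term where several were used. STAG2 KO, EZH2 KO and SUZ12 KO of experiment 2 shared 1 fit for the PRC2 comparisons. Normalised signal was tested with limma 3.58.1 on log2(value + 1) for genes with a mean of at least 10. p-values were adjusted over all genes tested by Benjamini-Hochberg, with calls under 0.05. Pairs used log2 CPM with a prior count of 2 and at least 10 counts. Levels are CPM under 1 TMM scaling of the 26 count libraries. Scripts were tested on simulated data. Alternatives were DESeq2 1.42.0, no count filter, each library left out, other controls and, for the signal, other pseudocounts, filters, a replicate block and edgeR on recovered reads. Scaling by library size alone moved the median of all genes to 0.196 in EZH2 KO and 0.19 in SUZ12 KO, from 0.037 and 0.009.

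Of 60107 Ensembl identifiers 56104 matched a symbol. The members and lists were chosen with earlier results of these data known. Every member is accounted for in the counts, and 1 is not reported here by itself. Full statistics are given for members called in at least 1 replicated test, at most 8 per comparison by absolute log2 fold change, and each called member is named. Of each list, the called genes with the largest absolute log2 fold change are named in the comparisons with controls, at most 3 per comparison. In the direct comparisons some called genes of the lists are counted without being named. Where further called or uncalled genes are named, they were chosen after their values were seen, as was the count of genes that pass the filter without the PRC2 KO or STAG2 KO libraries.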

Additional observations from a re-analysis of the deposited data

Results flagged for a closer look

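Each of 15 members was examined in 2 sets of libraries, STAG2-proficient and STAG2 KO of experiments 1 and 2. Single libraries stood apart in 5 of these 30 groups of values. Chance gives about 1 in 20 where libraries are alike and separate, while these sets pool 2 experiments and their groups share libraries. Among the 6 STAG2-proficient libraries of experiments 1 and 2, the parental library of experiment 1 had the highest BHLHE40 level (12.9 CPM) and the lowest HAND2 level (33.3 CPM). Among the 5 STAG2 KO libraries, STAG2 KO 24 of experiment 1, whose STAG2 level is intermediate, had the highest BHLHE41 (3.0 CPM) and the lowest HES4 (4.75 CPM). STAG2 KO 5 of experiment 2 had the highest HEY1 (2.36 CPM). What sets these libraries apart was not tested.

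Effects differed between genotypes by a direct edgeR test. The effect of STAG2 KO minus that of STAG1 KO, in log2 units, was −3.55 for BHLHE41, −1.42 for MSC, −0.92 for HES1 and 2.17 for HES7. STAG2 KO minus PRC2 KO was −4.19 for BHLHE41, −2.42 for BHLHE40, −1.52 for MSC, −1.11 for HEYL, −1.10 for HES6, −1.09 for HES4 and −0.59 for HES1. It was 1.21 for ATOH8 and 1.33 for BHLHE22. NEUROD6 (4.03) passed the count filter only with the STAG2 KO libraries, which favoured a higher value there. OLIG3, TWIST2, TCF15 and TAL1 passed it only with the PRC2 KO libraries, so they had to be lower in STAG2 KO, and their fitted values (−7.21, −6.81, −5.50 and −5.19) are no bounds. MSC was higher without STAG2 in SK-N-MC (log2 difference 4.33) and lower in A4573 (−1.09), with 1 library per arm, and that difference was not tested.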

How the results depend on the processing

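Of 669 values of called members under the alternatives, 586 were still called, 83 were not (74 of these with a library left out), and 0 changed sign. Of 44 calls, 27 held under every alternative, 12 of them calls of TAL1, TCF15, TWIST2 and OLIG3, which had to differ where a count filter was used, and 1 of NEUROD6, favoured by that filter in STAG2 KO against PRC2 KO. The number of called members moved in SUZ12 KO from 11 to 6 with the WT clone as the only control, and in STAG1 KO from 1 to 3 by DESeq2 and to 2 without a count filter. With each library left out in turn it ranged from 2 to 5 in STAG2 KO, 6 to 12 in SUZ12 KO, 0 to 2 in STAG1 KO, 0 to 5 in STAG2 KO against STAG1 KO, and 0 to 2 for WT clone against parental. The causes were not tested, beyond fewer samples in each such fit. In experiment 3 leaving out a control leaves 1 control library, which is assumed to vary like the others. In EZH2 KO, STAG2 KO against PRC2 KO, EZH2 KO against SUZ12 KO and the knockdown the counts stayed within 1.5 times their value under each alternative. The replicate block gave 4 calls after knockdown, adding MSC (3 without it) and changing no other call. The like-numbered control and siSTAG2 libraries correlated over genes at 0.026, 0.037 and 0.004 after removal of group means, so the replicates share little but a number.

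Depth limits the members at a few counts: 27 of the 46 never passed 10 counts in an A673 clone library, and most of their differences were not tested. Each KO library is 1 clone, so editing, clone and genotype are told apart only as far as clones of a genotype were alike. STAG1 KO has 2 controls and the pairs 1 library per arm. The libraries carry no strand information, so antisense overlap cannot be separated.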
